A study of Mus musculus with 6 samples.

Results

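DNA methylation was described over 6 genes that write and erase it, the DNA methyltransferases Dnmt1, Dnmt3a and Dnmt3b and the dioxygenases Tet1, Tet2 and Tet3, in colon epithelium of mice. The members are the captured regions that overlap 6 windows of build mm9, each a gene with about 2 kb on either side. From the first to the last member region they span chr9:20720908-20766303 for Dnmt1, chr12:3808104-3897697 for Dnmt3a, chr2:153474788-153511475 for Dnmt3b, chr10:62285318-62344154 for Tet1, chr3:133178719-133208503 for Tet2 and chr6:83317774-83408187 for Tet3. They number 97 of 209687 regions: 8 in Dnmt1, 24 in Dnmt3a, 12 in Dnmt3b, 8 in Tet1, 18 in Tet2 and 27 in Tet3. Of these, 81 had a value in all 6 samples and entered the tests (8, 22, 9, 7, 15 and 20 per gene, in that order), and 16 lacked a value in at least 1 sample. The windows were set by gene position and by no methylation value, though the members were chosen with earlier results of these data known.

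All mice were C57BL/6, an inbred laboratory strain, and 18 weeks old. Each of 3 groups had 2 samples, numbered 0 and 1: controls, mice given azoxymethane and dextran sulfate sodium (AOM/DSS), and mice given both agents and curcumin (the curcumin group below). Azoxymethane is a colon carcinogen, dextran sulfate sodium inflames the colon, and curcumin is a compound of turmeric. The labels' protocol says that the proximal colon and tumors were taken away and epithelium was scraped from what remained, so the libraries hold scraped mucosa, washed to lower its share of blood cells, and not tumor tissue. The sources used here give no doses or schedules and do not say whether a library came from a single animal, so spreads and p-values below measure only the variation between these samples, which may be technical. In such bulk DNA, a change in the mix of cells and a change within cells cannot be told apart. The files used here hold methylation calls and no RNA, so the labelled cell type was not checked against markers, and nothing below measures how much of any enzyme was made.

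DNA methyltransferases place a methyl group on the cytosine of CpG dinucleotides. Dnmt1 copies the pattern of the parent strand onto the new strand after replication, while Dnmt3a and Dnmt3b can methylate CpGs that carried no mark. Tet enzymes oxidise 5-methylcytosine to 5-hydroxymethylcytosine and further products, a route by which the mark is lost. Bisulfite sequencing reads 5-methylcytosine and 5-hydroxymethylcytosine alike, so the levels are the sum of both. CpG islands, stretches dense in CpGs that often hold promoters, are usually free of methylation in normal tissue, whereas the bodies of genes are usually methylated. The colon epithelium is renewed throughout life from stem cells in the crypts, so its cells must copy their methylation at each division.

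The start sites differ widely in CpG content, which is shown first because density decides how the regions are sorted below. RefSeq (build GRCm38.p6) lists 10 starts for the 6 genes, and each start window runs from 250 bases before to 50 bases after the start. The median window among all 32851 in the table holds 7 CpGs. Tet2 has the densest member window, with 57 CpGs, a number reached by 0.152% of all windows. Dnmt1 has the sparsest: its outermost start has 2 CpGs, and another start 7265 bases further in has 33. Dnmt1 is known for separate oocyte and somatic promoters, but which RefSeq start is which was not tested. Dnmt3a is known for a short form read from an internal promoter, and its starts hold 46 and 47 CpGs at the outer end and 18 at a start 84764 bases downstream. Dnmt3b has 30, Tet3 22 and Tet1 17. Printed 5′ to 3′ on the gene's strand, with every CG in capitals, are 5 of the 10 starts, chosen to show the sparsest (Dnmt1 outermost), the densest (Tet2), the innermost starts of the 2 genes with several, and Tet1. These positions belong to GRCm38.p6 and were not lined up with the mm9 regions.
Dnmt1 outermost start (chr9:20959839-20960138, minus strand): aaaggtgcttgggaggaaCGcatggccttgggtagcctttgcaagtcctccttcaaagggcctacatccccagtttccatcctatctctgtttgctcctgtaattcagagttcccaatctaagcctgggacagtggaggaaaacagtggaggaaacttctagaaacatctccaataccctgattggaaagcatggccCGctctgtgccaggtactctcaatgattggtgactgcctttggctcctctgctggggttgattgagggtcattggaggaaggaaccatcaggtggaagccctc
Dnmt1 innermost start (chr9:20952574-20952873, minus strand): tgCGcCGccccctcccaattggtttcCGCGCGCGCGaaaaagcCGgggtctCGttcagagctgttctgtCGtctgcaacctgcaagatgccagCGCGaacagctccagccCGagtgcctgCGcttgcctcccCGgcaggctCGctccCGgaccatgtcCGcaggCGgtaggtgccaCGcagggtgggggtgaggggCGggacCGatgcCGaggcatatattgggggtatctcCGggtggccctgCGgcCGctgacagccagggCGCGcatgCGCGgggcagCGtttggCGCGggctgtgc
Dnmt3a innermost start (chr12:3891494-3891793, plus strand): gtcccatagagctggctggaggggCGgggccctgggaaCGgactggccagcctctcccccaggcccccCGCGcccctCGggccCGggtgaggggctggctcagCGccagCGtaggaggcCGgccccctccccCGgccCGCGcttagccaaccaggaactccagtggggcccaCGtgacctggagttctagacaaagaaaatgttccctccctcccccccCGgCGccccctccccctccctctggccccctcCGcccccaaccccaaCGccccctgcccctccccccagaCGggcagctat
Tet1 start (chr10:62887275-62887574, minus strand): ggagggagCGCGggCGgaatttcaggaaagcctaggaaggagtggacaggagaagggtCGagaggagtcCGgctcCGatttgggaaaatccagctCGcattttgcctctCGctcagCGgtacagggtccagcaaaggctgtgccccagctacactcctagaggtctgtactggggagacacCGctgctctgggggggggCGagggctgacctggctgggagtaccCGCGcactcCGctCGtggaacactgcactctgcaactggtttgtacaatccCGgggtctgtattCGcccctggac
Tet2 start (chr3:133544341-133544640, minus strand): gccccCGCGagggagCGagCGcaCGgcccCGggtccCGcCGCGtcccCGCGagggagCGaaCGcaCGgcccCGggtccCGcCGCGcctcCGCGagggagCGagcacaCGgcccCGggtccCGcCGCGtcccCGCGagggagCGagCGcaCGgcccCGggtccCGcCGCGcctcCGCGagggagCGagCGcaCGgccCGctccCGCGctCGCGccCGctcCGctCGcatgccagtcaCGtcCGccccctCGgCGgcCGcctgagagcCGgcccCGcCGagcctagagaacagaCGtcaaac

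Levels are the share of methylated calls in a region, in percent, and a call is the reading of 1 CpG in 1 read. Total calls per library ran from 24682973 to 30727568, of which 7890 to 9743 fell in the member regions, with a median of 72 to 86 calls per member region and library. The mean gap between replicates was 4.91 percentage points over the member regions and 4.76 over all regions tested. A region was called dense if it had at least 10 CpGs and at least 4 CpGs per 100 bases. The first 5 kb of a window on the gene's 5′ side were taken as its promoter end, and regions outside both classes as gene body. No gene annotation of build mm9 was used here, so regions were not placed in exons, introns or UTRs.

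**Figure D1:**
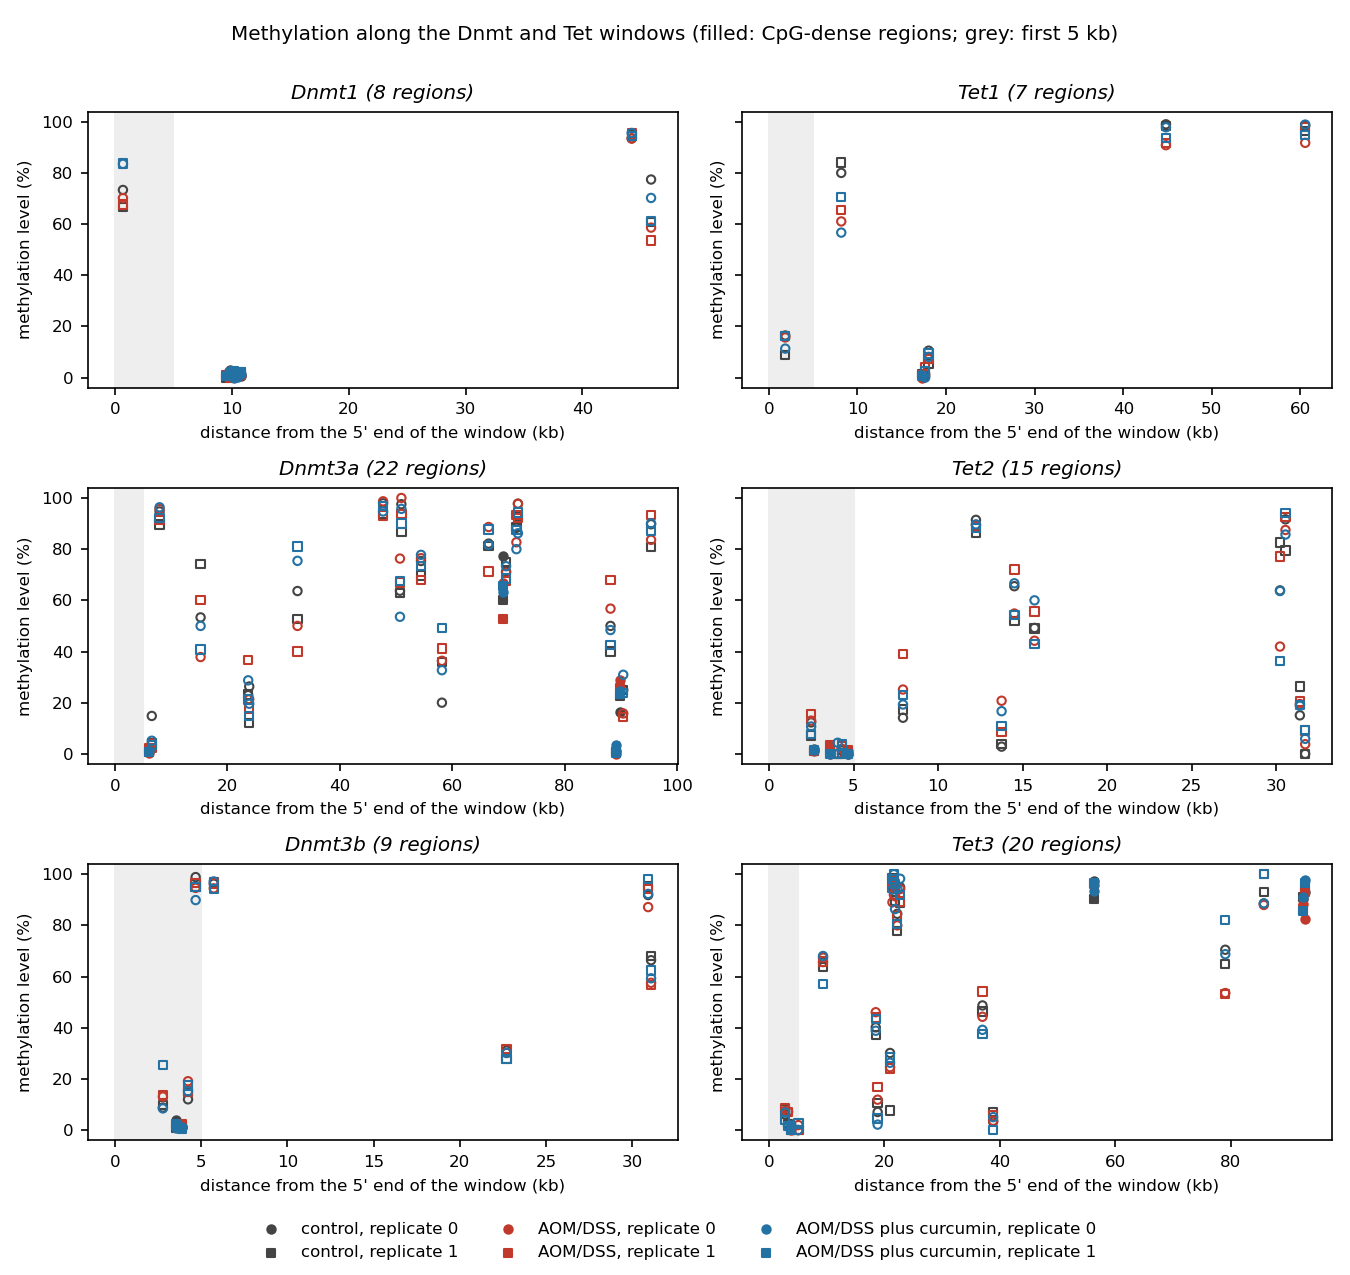
Methylation level of each member region (percent of calls, vertical axis) against its distance from the 5′ end of the gene's window (kb, horizontal axis), 1 panel per gene and 1 colour per group, with a point for each library. Filled points are dense regions, circles and squares are replicates 0 and 1, and grey marks the first 5 kb. Every window holds both regions near 0% and highly methylated regions.

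In all 6 genes, CpG-dense DNA near 0% and sparser DNA at high levels stood side by side. Of the 18 dense member regions, 13 were under 5% in every library, the highest single value among them being 3.85%. Among all 45292 dense regions tested, 58.6% were under 5% in every library and 14% averaged 50% or more. Of the dense member regions 4 averaged 50% or more, all deep in the windows of Dnmt3a and Tet3, and 1 in Dnmt3a stood between. Only 6 of the 18 lay in the 5 kb promoter end, all of them in Dnmt3b, Tet2 and Tet3. The dense runs of Dnmt1, Dnmt3a and Tet1 lay further into their windows and were therefore counted as internal.

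For Dnmt1, the maintenance enzyme, 5 neighbouring regions (chr9:20755889-20757486) formed a run 9.5 to 10.8 kb from the window's 5′ end, with 74 CpGs and 4 dense regions. The region with the most CpGs, chr9:20757265-20757486 with 20, read 0.699% and 0% in controls, 1.57% and 0.855% in AOM/DSS and 0.99% and 0.617% with curcumin. The 0% rests on 89 calls, which allows up to 3.37%. Averaged over the 4 dense regions, the levels were 1.43% ± 0.212 in controls, 1.00% ± 0.472 in AOM/DSS and 1.53% ± 0.347 with curcumin (SD, n = 2 each), and the groups overlapped in every comparison. Limits drawn from 0 methylated calls, here and below, cover counting error only and take the calls as independent, which calls from 1 read are not. Nearest the window's 5′ end, 0.7 kb in, lay a sparse region with 7 CpGs, chr9:20766045-20766303. It was methylated, at 73.3% and 66.7% in controls, 70.2% and 67.7% in AOM/DSS and 83.5% and 83.6% with curcumin.

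Dnmt3a, a de novo enzyme, had 2 separate unmethylated dense stretches. At 6.1 kb from the window's 5′ end, chr12:3808104-3808318 with 23 CpGs, the most of any member region, stood at 1.09% and 0.649% in controls, 0.493% and 2.48% in AOM/DSS and 0.995% and 0.704% with curcumin. At 89.1 kb, chr12:3891135-3891412 with 20 CpGs stood at 0.987% and 0.901% in controls, 0% and 0.781% in AOM/DSS and 3.57% and 0.395% with curcumin. The 0% there, of 186 calls, allows up to 1.61%. A short way on, at 89.9 kb, chr12:3891891-3892163 with 15 CpGs was partly methylated in every library, at 16.3% and 22.5% in controls, 29.0% and 25.6% in AOM/DSS and 24.7% and 23.5% with curcumin. Both AOM/DSS values lay above both controls there, by 7.93 points between means (edgeR unadjusted p = 0.11, adjusted p = 0.831). The next tested region, chr12:3892382-3892479, 218 bases on with 5 CpGs, went the other way. It read 25% in both controls, 15.8% and 14.3% in AOM/DSS and 30.9% and 23.8% with curcumin. AOM/DSS differed from controls by -9.96 points there (edgeR unadjusted p = 0.145, adjusted p = 0.846). The remaining dense region of Dnmt3a, at 68.9 kb, averaged 68.6% ± 12.2 in controls, 59.7% ± 9.87 in AOM/DSS and 64.5% ± 1.60 with curcumin (SD, n = 2).

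Dnmt3b, the other de novo enzyme, showed the sharpest border of the set. Its promoter island of 2 dense regions, chr2:153475534-153476208 with 38 CpGs, averaged 1.91% ± 0.834 in controls, 1.88% ± 0.35 in AOM/DSS and 1.28% ± 0.334 with curcumin (SD, n = 2). Just downstream, chr2:153476245-153476577 stood at 12% to 19.1% over the 6 libraries. The next region, chr2:153476688-153476778, begins 110 bases further on and stood at 89.9% to 98.9%. The step between those neighbours was at least 74.7 points in each library. On the upstream side, chr2:153474788-153475047 read 8.82% and 9.76% in controls, 13.1% and 13.7% in AOM/DSS, and 8.47% and 25.5% with curcumin, so that the curcumin replicates lay far apart. Outside the promoter end, the lowest region with a value in all 6 libraries was chr2:153494719-153494830 with 4 CpGs. It stood at 27.7% to 31.7%.

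Tet1 had 1 dense region, chr10:62328412-62328730 with 16 CpGs, 17.3 kb from the window's 5′ end, at 1.12% and 1.27% in controls, 0% and 0.858% in AOM/DSS and 1.12% and 0.498% with curcumin. The 0% of 195 calls allows up to 1.54%. At the window's own 5′ end, 1.8 kb in, Tet1 had only a sparse region of 3 CpGs, chr10:62344117-62344154, at 8.93% to 16.5%. Tet2 had its promoter island in the promoter end, 3 dense regions with 43 CpGs, at 0.948% and 0.985% in controls, 0.777% and 1.93% in AOM/DSS and 0.527% and 0.495% with curcumin. Both curcumin values lay below all other libraries, and group means differed by less than 1 point. The densest of these regions, chr3:133207143-133207367 with 20 CpGs, had 0% in both curcumin libraries, at 160 and 210 calls that allow up to 1.88% and 1.43%. Its AOM/DSS replicates read 0% and 3.27%, so the difference of -1.63 points between these groups (edgeR unadjusted p = 0.0159, adjusted p = 0.928) came from 1 library: without AOM/DSS replicate 1 both groups stood at 0%. The dense Tet2 region nearest the window's 5′ end, chr3:133208071-133208356 with 13 CpGs, stood at 1.02% to 1.74% over the libraries.

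Tet3 had dense DNA of both kinds. Its 1 promoter island region, chr6:83407063-83407168 with 11 CpGs, stood at 0% in 4 libraries, which rest on 24 to 68 calls and allow up to 12.5% in the shallowest, and at 1.32% and 2.04% in the other two. The other 3 dense regions, deep in the window, 56.3 to 92.9 kb from its 5′ end with 58 CpGs in all, averaged 92.9% ± 0.961 in controls, 90.4% ± 2.25 in AOM/DSS and 93.5% ± 0.799 with curcumin (SD, n = 2). In this gene density alone therefore did not go with a low level. Away from the promoter end, the lowest region with a value in all 6 libraries was chr6:83405778-83405900, with 8 CpGs, at 0% in 4 libraries (31 to 69 calls, allowing up to 9.68%) and at most 2.63% in the other two.

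**Figure D2:**
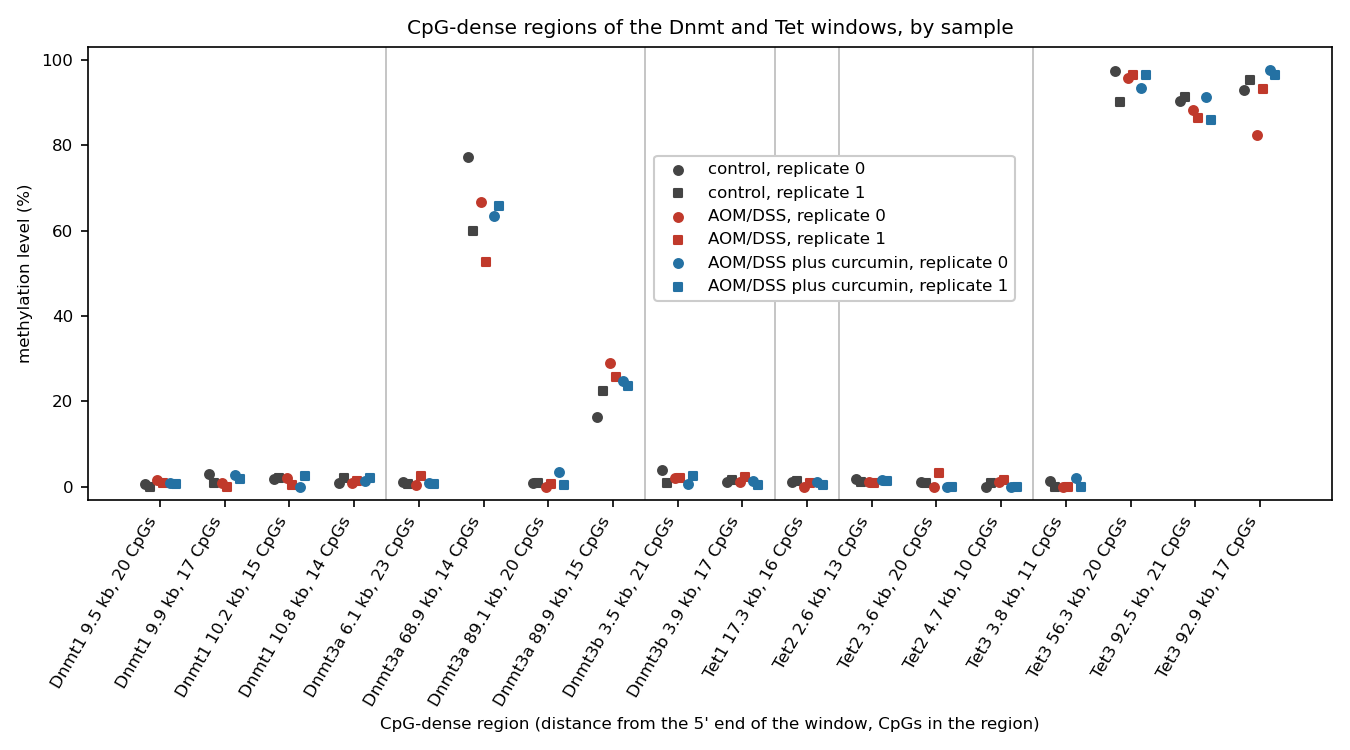
Level (percent, vertical axis) of each of the 18 dense member regions in each of the 6 libraries, ordered by gene and distance from the window's 5′ end, 1 colour per group. The lowest 13 regions lie at or under 3.85% in every library, while 1 region of Dnmt3a and 3 of Tet3 average at least 50% and 1 region of Dnmt3a lies at 16.3% to 29.0%.

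Outside the dense and promoter regions, 53 gene body regions were summarised, each gene weighted alike. Their mean level was 58.7% and 57.0% in controls, 55.0% and 57.5% in AOM/DSS and 57.5% and 56.7% with curcumin. The group means were 57.8% ± 1.21, 56.3% ± 1.78 and 57.1% ± 0.524 (SD, n = 2), and the groups overlapped in all 3 comparisons. AOM/DSS differed from controls by -1.55 points and curcumin from AOM/DSS by 0.82 points. Over all 134630 regions that were not dense, each weighted alike and promoter ends included, the group means were 49.8%, 48.6% and 49.3%. The same differences were -1.20 and 0.66 points there, both without overlap. The smallest two-sided p of an exact permutation test between groups of 2 is 0.333, so levels and overlap are given in its place. By gene, the body means were lowest in Tet2, at 42.0% to 51.5% over the libraries, and highest in Dnmt3b, at 67.3% to 72.0%. Tet2's highest value came from AOM/DSS replicate 1, at 51.5%, while the other AOM/DSS replicate stood at 43.0%. The body class also took in sparse pieces of low-methylated runs past 5 kb. Dnmt1's 3 body regions included chr9:20756308-20756487, averaging 1.03%. Tet1's 5 included chr10:62327960-62327972 and chr10:62328092-62328361, at 8.04% and 1.89%. The lowest of Dnmt3b's 4 averaged 29.8%, since its island lay in the promoter end. The order of the genes therefore depends in part on the 5 kb rule.

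Regions averaging 50% or more over the 6 libraries were also taken by themselves, as a class defined once the levels were known. The 40 such member regions averaged 81.5% ± 2.02 in controls, 79.1% ± 1.54 in AOM/DSS and 81% ± 0.551 with curcumin (SD, n = 2). AOM/DSS differed from controls by -2.34 points, with overlap, and all 76762 such regions differed by -2.20 points without it. The curcumin group lay above AOM/DSS by 1.84 points in the members, without overlap, and by 1.59 points in all such regions. These comparisons share the AOM/DSS libraries, so opposite signs arise in part from those libraries alone. By medians, the members differed by -0.77 and 0.65 points in these comparisons and all such regions by -1.87 and 1.39, so members and table were close by their means and less so by their medians.

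By gene, the means of this class rest on 3 to 14 regions and are given as descriptions. Tet1's 3 regions of this class averaged 92.5% and 93.0% in controls, 81.2% and 85.0% in AOM/DSS and 84.5% and 86.4% with curcumin. Controls lay above every treated library, and AOM/DSS differed from them by -9.59 points. The 3 regions differed by -2.57, -7.47 and -18.7 points, the last with 4 CpGs and 30 to 77 calls. Dnmt3b's 4 regions averaged 88.6% ± 0.313 in controls, 84.7% ± 1.77 in AOM/DSS and 86.0% ± 1.92 with curcumin (SD, n = 2), again with controls above all treated libraries. Dnmt1's 3 regions stood at 81.4% and 74.0% in controls, 74.1% and 72.2% in AOM/DSS and 83.1% and 79.7% with curcumin. Curcumin and AOM/DSS did not overlap there and differed by 8.27 points, while AOM/DSS and controls overlapped. The 11 regions of Tet3 averaged 87.5%, 85.3% and 89.3% in controls, AOM/DSS and curcumin, and the curcumin libraries lay above the other 4. Dnmt3a, with 14 regions, differed by less than 1 point in each comparison. In Tet2, with 5 regions, the AOM/DSS replicates stood at 63.6% and 77.2% and enclosed both controls. Whether these genes differ from one another in their response was not tested.

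**Figure D3:**
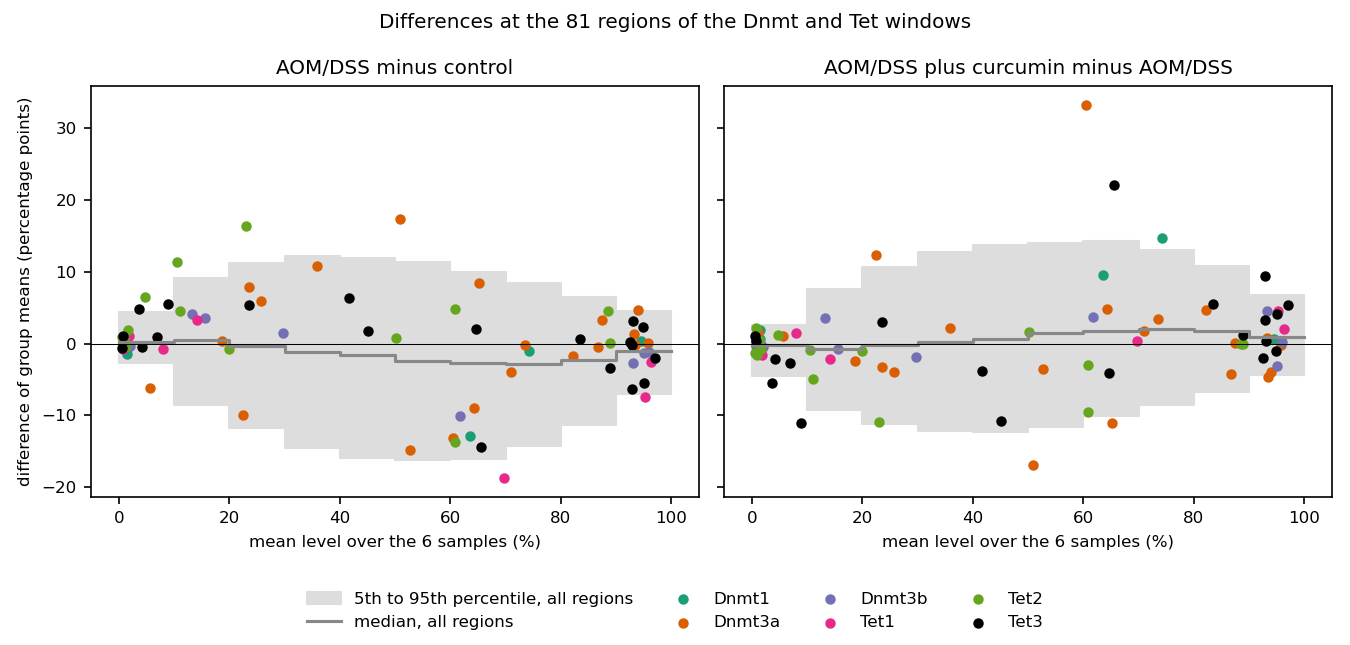
Difference between group means (percentage points, vertical axis) of each of the 81 tested member regions against its mean level over the 6 libraries (percent, horizontal axis), for AOM/DSS minus control (left) and AOM/DSS plus curcumin minus AOM/DSS (right), with 1 colour per gene. The grey band spans the 5th to the 95th percentile of all 179922 regions in classes of level 10 points wide and the line is their median, and 71 of the 81 member regions lie inside the band in each panel.

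The comparison of AOM/DSS with control asks what carcinogen and colitis changed at these genes. No member region was called by edgeR's quasi-likelihood test, which needed a Benjamini-Hochberg adjusted p under 0.05 over all 179922 regions and group means at least 10 points apart. Among all regions 0.00389% were called. At an unadjusted p under 0.05 there were 5 of 81 member regions, 3 higher and 2 lower in AOM/DSS. Of all regions 6.34% passed, 2.73% higher and 3.62% lower. Group means were at least 10 points apart in 11 member regions and in 8.48% of all regions. The smallest adjusted p was 0.676. limma on log2 ratios called 0 members as well, and Fisher's exact test on calls summed per group, which ignores the spread between samples, called 2 at the same thresholds, where it called 2% of all regions and limma 0%. Groups did not overlap in 18 member regions that were higher in AOM/DSS and 14 that were lower, against 14.8% and 20.8% of all regions, or 35.7% in either direction. The median difference over the members was 0.25 points, and over all regions -0.26 points.

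In Tet2, 6 of 15 regions were higher in AOM/DSS without overlap and 1 was lower, against 14.8% and 20.8% of all regions. Of the 6, 3 had an unadjusted p under 0.05. The other 3 lay among 6 neighbouring tested regions of the promoter end, all at low levels, with gains of 0.92, 1.90 and 4.54 points. With calls summed over those 6 neighbours the groups overlapped, at 2.76% in controls and 3.51% in AOM/DSS (edgeR unadjusted p = 0.37, adjusted p = 0.872). The region chr3:133202933-133203075, 7.9 kb from the window's 5′ end with 4 CpGs and 139 to 183 calls, read 14.1% and 17.4% in controls, 25.1% and 39.0% in AOM/DSS and 19.3% and 23.0% with curcumin. Both AOM/DSS libraries lay above all others, by 16.3 points over controls (edgeR unadjusted p = 0.00493, adjusted p = 0.678). The AOM/DSS replicates themselves lay far apart: the difference was 9.39 points without replicate 1 and 23.2 points without replicate 0. It was one of the 2 regions that passed Fisher's exact test (adjusted p = 0.000325). A second region, chr3:133197115-133197245, 13.8 kb in with 5 CpGs, read 2.82% and 3.85% in controls, 20.8% and 8.57% in AOM/DSS and 16.7% and 10.8% with curcumin. All 4 treated libraries lay above both controls, by 11.3 points in AOM/DSS (edgeR unadjusted p = 0.0121, adjusted p = 0.702) and 10.4 points in the curcumin group (edgeR unadjusted p = 0.03, adjusted p = 1). Here too the AOM/DSS replicates lay far apart, and the difference from controls was 5.24 points without replicate 0 and 17.4 points without replicate 1. The remaining region with an unadjusted p under 0.05 was chr3:133179235-133179300 with 3 CpGs. It had 0% in both controls, at 30 and 36 calls that allow up to 10% and 8.33%, and 3.77% and 9.09% in AOM/DSS. The difference was 6.43 points (edgeR unadjusted p = 0.0404, adjusted p = 0.778), or 3.77 points without AOM/DSS replicate 1. With curcumin the levels were 5.88% and 9.30%. The lower value of each treated pair lay within both of the controls' limits, and the higher one within the wider limit only. The widest range in Tet2, 46.2 points, was at chr3:133180666-133180789 with 4 CpGs and 23 to 62 calls. It read 63.9% and 82.6% in controls, 41.9% and 77.1% in AOM/DSS and 63.6% and 36.4% with curcumin. AOM/DSS differed from controls by -13.7 points, with overlap (edgeR unadjusted p = 0.27, adjusted p = 0.895). The curcumin group differed from controls by -23.2 points, without overlap (edgeR unadjusted p = 0.0823).

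In Tet1 the non-overlapping regions ran the other way, with 3 of 7 lower in AOM/DSS and 0 higher, against 20.8% and 14.8% of all regions. The region chr10:62301076-62301183, 44.8 kb from the window's 5′ end with 5 CpGs, read 99.0% and 98.4% in controls, 90.8% and 91.6% in AOM/DSS and 97.8% and 93.7% with curcumin. AOM/DSS differed from controls by -7.47 points (edgeR unadjusted p = 0.00443, adjusted p = 0.676; Fisher's exact test adjusted p = 0.0447, short of the 10 points a call needs) with replicates within 1 point of each other, and the curcumin libraries fell between the groups. At chr10:62337728-62337835, 8.2 kb in with 4 CpGs and 30 to 77 calls, the levels were 80.0% and 84.1% in controls, 61% and 65.6% in AOM/DSS and 56.7% and 70.7% with curcumin. All 4 treated libraries lay below both controls, by -18.7 points in AOM/DSS (edgeR unadjusted p = 0.017, adjusted p = 0.717) and -18.4 points with curcumin (edgeR unadjusted p = 0.042, adjusted p = 1). This was the other region that passed Fisher's exact test (adjusted p = 0.033). The remaining region, the dense one described above, differed by less than 1 point.

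In the methyltransferase genes no region reached an unadjusted p under 0.05 in this comparison. Among regions with a value in all 6 libraries, the widest gap in Dnmt3b was at chr2:153503093-153503338, 31.1 kb in with 8 CpGs, at 66.4% and 68.1% in controls, 57.6% and 56.6% in AOM/DSS and 59.3% and 62.4% with curcumin. Replicates there differed by about 1 to 3 points, and AOM/DSS differed from controls by -10.2 points (edgeR unadjusted p = 0.14, adjusted p = 0.845). For Dnmt1 it was chr9:20720908-20721128 with 5 CpGs, at 77.4% and 60.7% in controls, 58.6% and 53.6% in AOM/DSS and 70.2% and 61.2% with curcumin. Its controls differed by more than the groups did (difference -12.9 points, edgeR adjusted p = 0.842; -4.59 points without control replicate 0). Dnmt3a had 4 of 22 regions higher and 4 lower without overlap, against 14.8% and 20.8% of all regions. Its widest gap was at chr12:3890118-3890163 with 3 CpGs and 25 to 40 calls. Levels there were 50% and 40% in controls, 56.8% and 67.9% in AOM/DSS and 48.4% and 42.4% with curcumin. AOM/DSS lay 17.3 points above controls (edgeR unadjusted p = 0.184, adjusted p = 0.863), the largest gain among the 81 tested member regions. Tet3 had 4 of 20 higher and 3 lower, and the higher ones included a sparse region of its promoter end, chr6:83407556-83407683 with 4 CpGs. That region read 2.41% and 2.27% in controls, 7.23% and 7.02% in AOM/DSS and 1.61% and 1.59% with curcumin. AOM/DSS lay 4.78 points above controls (edgeR unadjusted p = 0.072, adjusted p = 0.811) and the curcumin group differed from AOM/DSS by -5.52 points (edgeR unadjusted p = 0.0435, adjusted p = 0.94).

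The curcumin group was next compared with AOM/DSS, the treatment it shares, for any change that came with curcumin. No member region was called, as was none of all regions (0%). At an unadjusted p under 0.05 there were 9 of 81 member regions in edgeR, 5 higher and 4 lower with curcumin, against 5.25% of all regions, 2.56% higher and 2.69% lower. Means were at least 10 points apart in 9 members and 7.18% of all regions. The smallest adjusted p was 0.905. limma called 0, as over all regions, and Fisher's exact test 3, against 0.998% of all regions. Groups did not overlap in 14 regions that were higher and 11 that were lower with curcumin, against 18.9% and 16% of all regions, or 34.9% in either direction. Member and overall medians were 0.0085 and 0.11 points.

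The widest member difference lay in Dnmt3a at chr12:3834478-3834755, 32.5 kb from the window's 5′ end with 7 CpGs and 35 to 57 calls. It read 63.6% and 52.8% in controls, 50% and 40% in AOM/DSS and 75.4% and 81.1% with curcumin. Both curcumin libraries lay above the other 4, by 33.3 points over AOM/DSS (edgeR unadjusted p = 0.00258, adjusted p = 0.905) and 20.1 points over controls (edgeR unadjusted p = 0.048, adjusted p = 1). Fisher's exact test passed it against AOM/DSS (adjusted p = 0.00547). Its nearest tested neighbours lay 8254 and 14937 bases away.

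In Dnmt1 the region nearest the window's 5′ end, chr9:20766045-20766303 described above, stood 14.6 points higher with curcumin than in AOM/DSS (edgeR unadjusted p = 0.018, adjusted p = 0.928) and 13.6 points above controls (edgeR unadjusted p = 0.0292, adjusted p = 1). The curcumin libraries, at 83.5% and 83.6%, lay above all 4 others, whose highest was 73.3%. It was the second region that passed Fisher's exact test (adjusted p = 0.0438).

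Tet3 had 3 regions higher and 2 lower at an unadjusted p under 0.05. At chr6:83391846-83392171, 18.8 kb from the window's 5′ end with 12 CpGs and 93 to 110 calls, the levels were 7.07% and 10.6% in controls, 11.9% and 16.8% in AOM/DSS and 2.15% and 4.55% with curcumin. The 3 groups did not overlap, with the curcumin group lowest, at a difference of -11.0 points from AOM/DSS (edgeR unadjusted p = 0.00255, adjusted p = 0.905). Fisher's exact test passed this region too (adjusted p = 0.0179). The next region, 43 bases on, chr6:83392215-83392499 with 9 CpGs, stood at 37.2% to 46.1% over the libraries. Its curcumin values, 38.8% and 43.5%, lay below the AOM/DSS values, 46.1% and 44.0% (difference -3.84 points, edgeR unadjusted p = 0.547, adjusted p = 0.988). Unlike the first region, its curcumin mean lay above controls, by 2.52 points with overlap. With calls of both regions summed, curcumin differed from AOM/DSS by -6.05 points (edgeR unadjusted p = 0.172, adjusted p = 0.906). At chr6:83331837-83331964, 79.0 kb in with 3 CpGs, controls read 70.5% and 65%, AOM/DSS 53.6% and 53.2% and curcumin 68.8% and 82.1%. AOM/DSS lay below both other groups, by 22.1 points against curcumin (edgeR unadjusted p = 0.018, adjusted p = 0.928). The highly methylated dense region chr6:83317774-83318127, with 17 CpGs, read 82.4% and 93.1% in AOM/DSS and 97.6% and 96.6% with curcumin (edgeR unadjusted p = 0.0108, adjusted p = 0.928); AOM/DSS replicate 0 alone lay below the controls, which read 93.0% and 95.2%, and the difference of 9.37 points was 4.02 without it. At chr6:83389303-83389357 both curcumin libraries read 100%, against 91.9% and 97.4% in AOM/DSS (edgeR unadjusted p = 0.014, adjusted p = 0.928), a difference of 5.31 points that was 2.56 without AOM/DSS replicate 0.

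Tet2 ran lower with curcumin in 4 of 15 regions without overlap and higher in 1, against 16% and 18.9% of all regions. At chr3:133202933-133203075, the region highest in AOM/DSS, curcumin differed from AOM/DSS by -10.9 points (edgeR unadjusted p = 0.074, adjusted p = 0.944), or -3.98 points without AOM/DSS replicate 1, and lay 5.40 points above controls. Its 2 regions with an unadjusted p under 0.05 both stood in the promoter end, at no more than 3.27% in any library. In Tet1 and Dnmt3b no region reached that p.

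Against controls, the curcumin group shows what stood apart from untreated tissue. Again 0 of 81 members and 0% of all regions were called in edgeR, the smallest adjusted p was 1, and limma and Fisher's exact test called 0, against 0% and 0.355% of all regions. In edgeR 6 members had an unadjusted p under 0.05, 5 higher and 1 lower, against 4.17% of all regions, 1.83% higher and 2.34% lower. Without overlap, 9 were higher and 11 lower, against 14.3% and 17.7% of all regions, or 32% in either direction. Means were at least 10 points apart in 7 members and 6.15% of all regions. The 6 are the Dnmt1 and Dnmt3a regions that were higher with curcumin, the Tet1 region chr10:62337728-62337835, 2 Tet2 regions that stood at 0% to 3.85% in controls, and chr6:83389303-83389357 in Tet3. In the Tet1 region and both Tet2 regions AOM/DSS and curcumin lay on the same side of controls, and both comparisons share the control libraries.

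**Figure D4:**
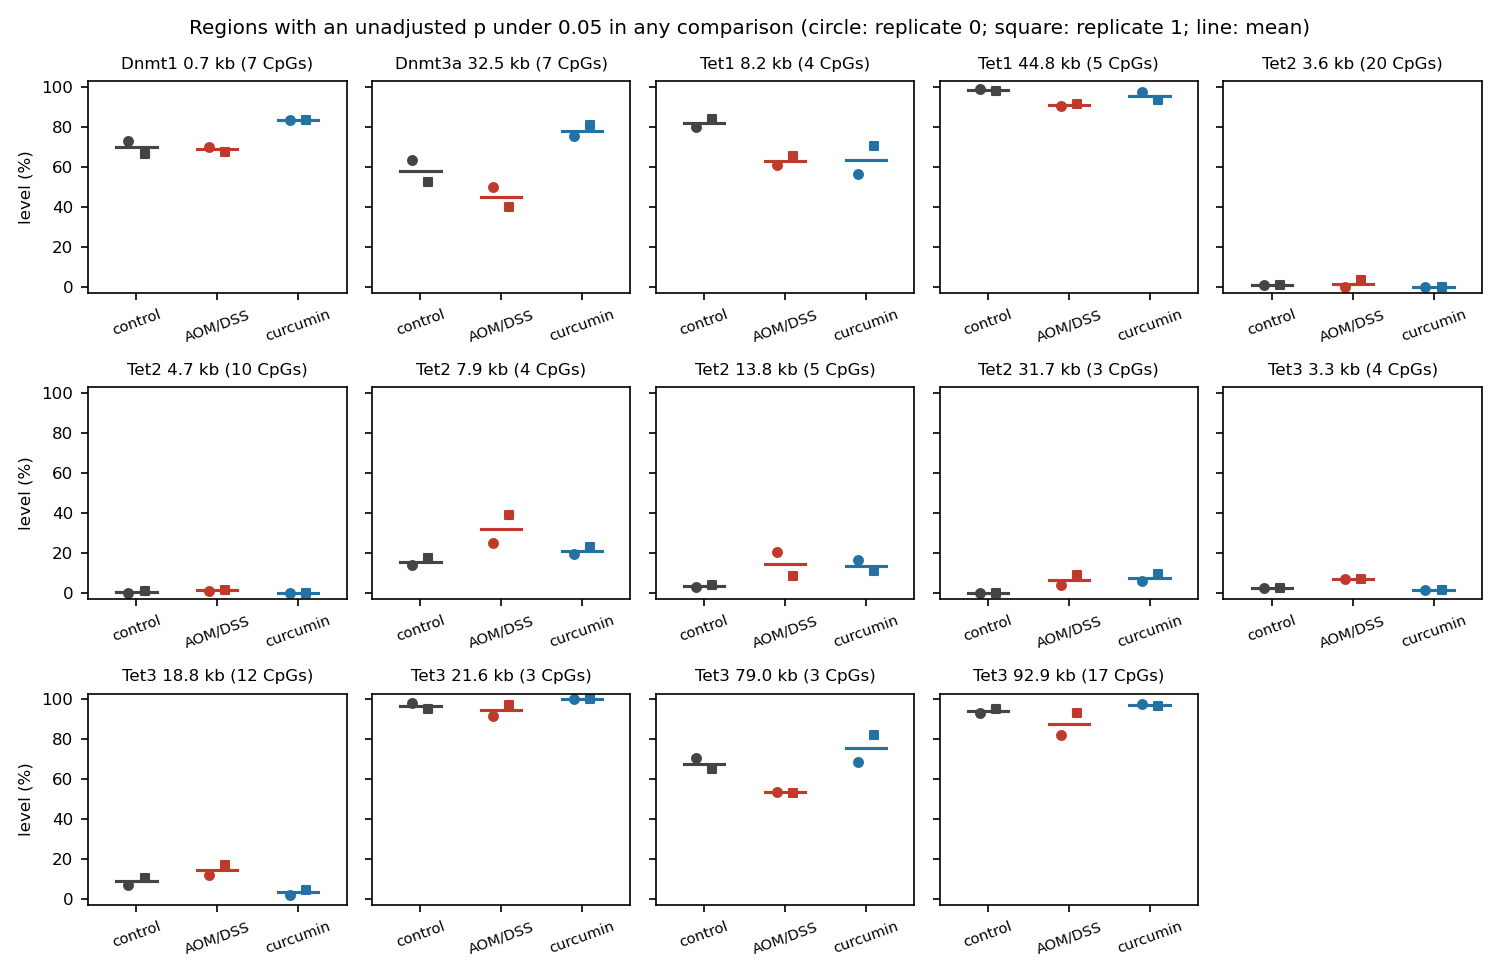
Level (percent, vertical axis) in each of the 6 libraries for the 14 member regions with an unadjusted edgeR p under 0.05 in at least 1 comparison, 1 panel per region, points coloured by group and lines at the group mean. None passed the adjusted threshold, and panels, titled by gene, distance from the window's 5′ end and CpGs, differ in which group stands apart: AOM/DSS at 7.9 kb in Tet2, curcumin in the Dnmt1 and Dnmt3a regions, controls at 8.2 kb in Tet1.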

How the data were processed

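Bisulfite libraries of colon epithelium (Agilent SureSelectXT Mouse Methyl-Seq capture, per the labels' protocols) were made from 6 samples. The submitters' processing notes list build mm9 and the tools Bismark 0.15.0, R 3.4.0 and ChIPseeker 1.10.3, with no step or setting for any of them, and the sources used here do not say whether duplicate reads were removed. The deposited files hold counts per region, the number of methylation calls and of methylated calls, beside the number of CpGs. The smallest deposited number of calls is 20. The base from which starts are counted is not stated, so positions may be off by 1.

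Levels are 100 × methylated calls / calls per region and library. edgeR 4.0.16 (R 4.3.3) fitted methylated and unmethylated counts of all 179922 regions with at least 10 calls in every sample, with a coefficient per sample and per group and without a replicate block, and p-values were adjusted by Benjamini-Hochberg over all of them. The fit was tested on simulated data. Averages used Python 3.11.15, numpy 2.4.6 and pandas 2.3.3, and Fisher's exact test scipy 1.17.1; limma 3.58.1 was another alternative.

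The members, lists and tests were chosen with earlier results of these data known. Regions named are, per gene, those with the smallest unadjusted p per comparison and the promoter island region nearest the 5′ end. The lowest region outside the promoter end and the region with the widest range over the libraries were also named per gene. Every region with an unadjusted p under 0.05 was added after its values were seen. So were some neighbours of named regions, further dense regions and the widest gaps between group means. Other genes of the pathway, such as Uhrf1 and Tdg, were not analysed here, since no mm9 annotation was used. Alternatives were other call minimums, tests, samples, promoter lengths and densities, calls pooled per gene, and, chosen after their values were known, runs of neighbouring regions and regions of at least 50%.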

Additional observations from a re-analysis of the deposited data

How the results depend on the processing

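The count of members called by edgeR or limma was 0 in each comparison under every setting run: the replicate block, only the 4 samples compared, at least 50 calls, no filter, no minimum difference, each library left out in turn (0 to 0 calls), and 43 runs of regions under 1000 bases apart. Fisher's exact test called 2 for AOM/DSS against control and 3 for curcumin against AOM/DSS, where it called 2% and 0.998% of all regions. The replicate numbers do not pair the samples by the labels, and deviations of same-numbered samples correlated at 0.058, 0.011 and 0.0055 over 93456 regions; the replicate block gave 41, 1 and 0 calls over all regions in place of 7, 0 and 0, and 0 among the members. The mean gene body difference between AOM/DSS and control, -1.55 points, was 0.381 with at least 50 calls and -3.58 in regions of at least 50%, and between -2.81 and -0.284 with a library left out. Between curcumin and AOM/DSS it was 0.816, and -0.631 with calls pooled, 2.32 in regions of at least 50% and -0.446 to 2.08 with a library left out; against control it was -0.73 and -1.58 to 0.123. These means therefore give no stable direction. By gene and part, 434 of 480 values moved by less than the spread between replicates and 43 by more. The other 3, whose groups did not overlap in the settings used above, were counted as reversed. These were the Dnmt1 body in AOM/DSS against control (0.342) and the Dnmt3a body in curcumin against AOM/DSS (-0.533), both with at least 50 calls. The dense Tet3 regions reversed in curcumin against AOM/DSS (-0.397) with density from 3 CpGs per 100 bases. Values that moved by less than the spread could change sign too. The Dnmt1 promoter flank in AOM/DSS against control was -1.07 points, and 2.27 without control replicate 0. The causes were not tested. Of 30 differences of single regions recomputed under the settings, 0 reversed. Members at an unadjusted p under 0.05 numbered 2 to 8, 4 to 10 and 1 to 8 over the settings, in the order of the comparisons. Regions with under 50 calls carry levels in steps of over 2 points, and 2 samples per group limit every comparison.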

Other observations

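Some member regions were partly methylated. At 30 to 50% stood 3.7% of those tested, against 9.13% of all regions. Of the 81 tested member regions, 13 averaged 10 to 30% over the 6 libraries (16%, against 11.8% of all regions), 4 each in Dnmt3a and Tet2, 3 in Dnmt3b and 1 each in Tet1 and Tet3. AOM/DSS stood above control by group mean in 11 of these 13, with a median difference of 4.13 points, and without overlap in 6 (46.2%). Over all 21167 regions of that level AOM/DSS stood above control in 11012, the median difference was 0.26 points and 18.5% were higher without overlap. The class was set by the levels of the same 6 libraries and looked at after the data were seen, so these are descriptions with no test, and some of the 13 are neighbours. Curcumin stood below AOM/DSS in 10 of the 13, with a median difference of -1.86 points, and in 11539 of the 21167, with a median of -0.59 points; this comparison shares the AOM/DSS libraries.

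Some neighbouring regions differed sharply, though the share of such pairs over all regions was not computed. Of 34 pairs of tested neighbours under 1000 bases apart, 3 differed by 50 points or more in mean level, 1 each in Dnmt3b, Tet2 and Tet3. In Tet3 the level went from 95.1% at chr6:83389460-83389610 to 23.5% at chr6:83389846-83390022, 235 bases further on, and by at least 64.5 points in each library. The Tet2 pair, 824 bases apart, stood at 19.9% and 88.5%.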
